A study of Mus musculus with 4 samples.

Results

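The 10 genes described here encode the 5 DNA-binding subunits of the NF-kB family (Nfkb1, Nfkb2, Rel, Rela and Relb) and 5 proteins known for holding the pathway back (Nfkbia, Nfkbid, Nfkbie, Nfkbiz and Tnfaip3). Peaks were taken from streptavidin ChIP-seq lists of 2 mouse thymocyte libraries when their midpoint fell inside the RefSeq body of one of these genes or within 100 kb on either side. By this rule 29 of 5198 peaks of the list labelled Tg thy and 25 of 4246 peaks of the list labelled NKT were chosen. NF-kB dimers wait in the cytoplasm bound to IkB proteins, and signals from antigen or cytokine receptors lead to IkB destruction and to entry of the dimers into the nucleus. Among the genes that NF-kB then switches on are those of its own inhibitors, so that the response ends itself. In the thymus the pathway takes part in survival, selection and the development of natural killer T (NKT) cells, whose innate-like program is directed by PLZF, the zinc finger factor encoded by Zbtb16.

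Both libraries came from thymocytes of mice on a C57BL/6 background. The library labelled Tg thy was made from PLZF tg/BirA tg mice, and the library labelled NKT from PLZF tg/BirA tg/Valpha14 tg mice. BirA is a bacterial ligase that attaches biotin, which streptavidin beads capture, and Valpha14 stands for the receptor alpha chain that invariant NKT cells share. PLZF and BirA transgenes were therefore common to both groups, and the promoters that drive the transgenes, the age and number of the mice and any cell sorting were not stated in the labels. Each group had 1 ChIP library and no replicate, the 2 matching input libraries were not analysed here, and no sample was a streptavidin pull-down from mice lacking that transgene. A peak is therefore a place of streptavidin enrichment, and whether PLZF itself was bound there cannot be told apart from other captured material.

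The deposited score of a peak ranged from 50.03 to 3133 in the Tg thy list and from 50.02 to 3104 in the NKT list. It was used to place a peak within its own list, where rank 1 is the highest score. Read depth is unknown, so a score pair from both lists is given side by side and shows no change between the libraries, and the absence of a peak from a list says only that none passed the authors' threshold. The files hold no expression values, so the labelled cell type could be set only against marker loci. Among all protein-coding genes 41.7% had a Tg thy and 37.2% an NKT peak in a window of this width, with median highest scores of 154.9 and 96.93 where there was one. Peaks lay around 10 of 10 T cell marker genes in the Tg thy list and 9 of 10 in the NKT list, with median highest scores of 1043 and 504.9, each that of a single peak that Cd3d, Cd3e and Cd3g share. The counts were 6 and 6 of 8 for B cell genes (medians 244.2 and 143.6), 4 and 4 of 6 for myeloid genes (143.1 and 97.66), and 1 and 3 of 6 for thymic stroma genes (554.4, a single gene, and 53.61).

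Sequence could be read for those peaks that overlapped the window around a listed transcription start (250 bases before to 50 after, from RefSeq for GRCm38.p6, which mm10 also names). The first 2 sequences are shown because they lie in the strongest peak near Tnfaip3 and in the strongest peak near Nfkbid, and the other 2 because they are whole NKT peaks in the windows of Rela and Relb. All are written 5′ to 3′ on the strand of the transcript whose start they flank, which is plus for Gm51814 and Map3k11 and minus for Gm42376 and Ppp1r37. The first is chr10:19062529-19062828, the second chr7:30394806-30395105, the third chr19:5688951-5689095 and the fourth chr7:19562473-19562633. Capitals mark matches on either strand to the letters TGTGGT (RUNX core), AGGAAG (ETS core), CTTTGA (TCF core) or AGATAA (core of GATA factors), and no match overlapped another.
Tnfaip3 upstream peak at Gm51814: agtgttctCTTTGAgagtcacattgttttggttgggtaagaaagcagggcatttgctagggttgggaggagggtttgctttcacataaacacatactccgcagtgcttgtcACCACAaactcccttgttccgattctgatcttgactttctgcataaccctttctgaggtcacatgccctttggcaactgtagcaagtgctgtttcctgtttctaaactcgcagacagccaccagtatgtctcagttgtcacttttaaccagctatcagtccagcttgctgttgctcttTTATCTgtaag
Nfkbid upstream peak at Gm42376: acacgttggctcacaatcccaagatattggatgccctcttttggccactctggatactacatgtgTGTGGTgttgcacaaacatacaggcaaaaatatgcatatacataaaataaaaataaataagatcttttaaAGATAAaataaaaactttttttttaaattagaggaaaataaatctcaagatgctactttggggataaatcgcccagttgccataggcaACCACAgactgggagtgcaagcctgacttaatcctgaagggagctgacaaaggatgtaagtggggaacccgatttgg
Rela window, NKT peak at Map3k11 and Pcnx3: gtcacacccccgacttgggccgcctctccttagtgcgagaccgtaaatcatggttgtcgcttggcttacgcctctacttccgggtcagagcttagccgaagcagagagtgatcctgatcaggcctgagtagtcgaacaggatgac
Relb window, NKT peak at Ppp1r37: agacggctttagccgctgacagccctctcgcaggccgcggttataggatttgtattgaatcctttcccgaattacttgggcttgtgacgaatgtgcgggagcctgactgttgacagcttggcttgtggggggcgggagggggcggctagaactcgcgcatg

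The Tnfaip3 sequence held 1 TCF match at bases 9 to 14, 1 RUNX match at bases 112 to 117 and 1 GATA match at bases 290 to 295. Its first 250 bases also lay within the NKT peak, and the GATA match lay beyond them. The Nfkbid sequence held 2 RUNX matches, at bases 66 to 71 and 224 to 229, and 1 GATA match at bases 136 to 141, and only its last 41 bases lay within the NKT peak. Neither of the short NKT peaks held any of the 4 exact strings. Other forms of these cores, those of ETS included, were not searched, so their absence is not shown. The Tg thy peak that partly overlaps the one at Ppp1r37 held 1 ETS match, at bases 217 to 222 of its 222 bases. Among 32817 start windows of 300 bases in the table, 16.8% held the RUNX letters, 35.4% the ETS letters, 16.0% the TCF letters and 11.2% the GATA letters. These matches describe letters and not bound sites.

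Peaks mostly lay around the NF-kB genes rather than in them, as they did for genes in general. Over all protein-coding genes the body held on average 0.129 of the 0.959 Tg thy peaks of a window, and 0.103 of the 0.781 NKT peaks. At least 1 peak lay in the window of 8 of 10 genes in the Tg thy list, where 41.7% of 21887 protein-coding genes had one, and of 9 of 10 in the NKT list, where 37.2% did. The genes with a peak in both lists were 7 of 10 (Nfkb2, Rel, Relb, Nfkbia, Nfkbid, Nfkbie and Tnfaip3), against 31.0% of all protein-coding genes. Nfkb1 and Rela had only an NKT peak and Nfkbiz only a Tg thy peak. These counts describe genes picked with earlier results known, and no test was made of them.

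The shares parted from the background in the wider windows. Inside the gene body a peak was listed for 1 of 10 genes in the Tg thy list (8.37% of all protein-coding genes) and for 0 of 10 in the NKT list (7.18%). With 10 kb on either side the counts were 3 of 10 (15.6% of all) and 1 of 10 (13.0% of all), which are near the background. With 50 kb they were 7 of 10 in each list, against 30.3% and 26.3% of all genes. Of the 29 Tg thy peaks 11 lay between 10 and 50 kb from the gene and 15 between 50 and 100 kb, and of the 25 NKT peaks 13 and 11 did. A Tg thy window held on average 2.90 peaks against 0.959 over all protein-coding genes, and an NKT window 2.50 against 0.781. Without Nfkbie, the gene with the most peaks, the means were 2.44 and 2.11.

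**Figure D1:**
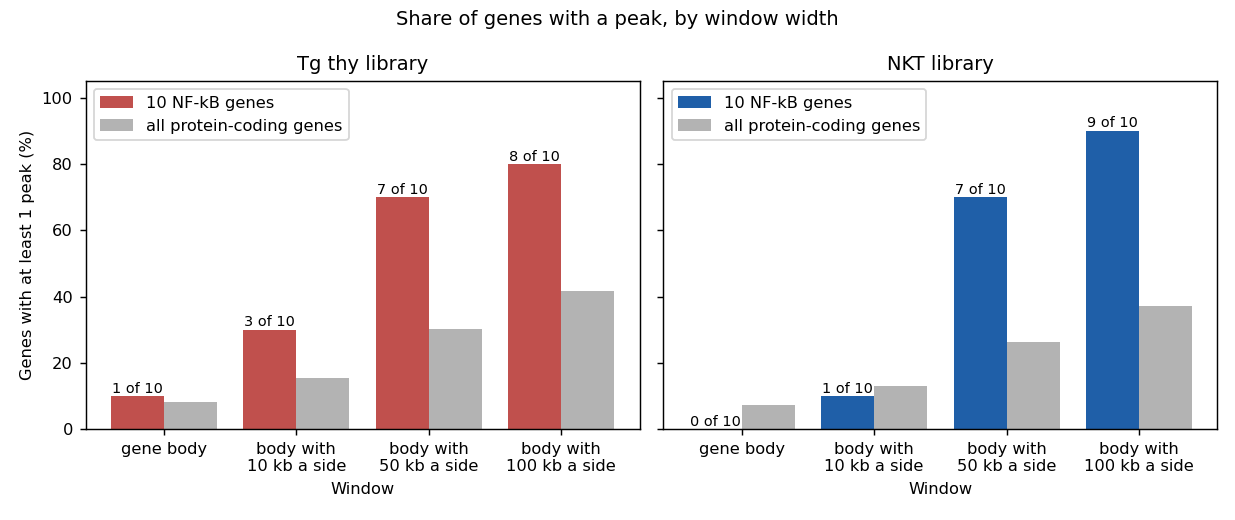
Share of genes with at least 1 peak (y axis, percent) for windows from the gene body alone to the body with 100 kb on either side (x axis), for the 10 NF-kB genes (coloured) and all 21887 protein-coding genes (grey), 1 panel per library. The NF-kB genes stand near the grey bars up to 10 kb and reach 8 of 10 and 9 of 10 at 100 kb.

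Most of these peaks were closer to another gene. The nearest protein-coding gene was the NF-kB gene itself for 8 of 29 Tg thy and 6 of 25 NKT peaks, and all of these lay at Tnfaip3, Nfkbia or Nfkbiz. By that stricter assignment 3 of 10 genes had a peak in the Tg thy list and 2 of 10 in the NKT list, against 13.6% and 11.7% of all protein-coding genes. Peaks inside another protein-coding gene numbered 9 and 7. The windows differ widely in how many other coding genes they reach, from 0 at Tnfaip3 and 1 at Nfkb1 to 12 at Rela and 15 at Relb. Crowded windows had peaks more often in general: with 0 to 3 other coding genes 30.7% of genes had a Tg thy peak, with 4 to 9 45.3% and with 10 or more 60.8%. For NKT peaks the shares were 27.4%, 40.6% and 53.8%. In the sparse class, which holds Nfkb1, Rel, Nfkbia, Nfkbiz and Tnfaip3, 4 of 5 genes had a Tg thy peak and 4 of 5 an NKT peak. In the middle class Nfkbid and Nfkb2 had a peak in each list, 2 of 2. In the crowded class, which holds Relb, Nfkbie and Rela, 2 of 3 had a Tg thy peak, near the share of that class, and 3 of 3 an NKT peak.

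The inhibitor windows held the stronger peaks, though not each of them did. Nfkbiz had 1 Tg thy peak, with a score of 94.52, and no NKT peak. Their 5 windows held 20 Tg thy peaks with a median score of 186.4 (61.38 to 3102) and 17 NKT peaks with a median of 106.0 (54.86 to 1455). The 5 subunit windows held 9 Tg thy peaks with a median of 88.00 (53.84 to 141.1) and 8 NKT peaks with a median of 75.13 (50.05 to 140.8). In the top 10% of their list by score were 6 Tg thy and 4 NKT peaks, and each of them was in an inhibitor window. Those in the Nfkbie and Nfkbid windows had Spats1 and Tyrobp as nearest coding gene. The inhibitor itself was nearest for 8 of the 20 Tg thy and 6 of the 17 NKT peaks. The median over the whole list was 110.8 and 73.79. The difference between inhibitors and subunits was not tested.

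Tnfaip3 encodes A20, an enzyme that edits ubiquitin chains and shuts down signalling to NF-kB, and lay on chromosome 10 (19000910 to 19015410, minus strand) with no other coding gene within 100 kb. The Tg thy list held 5 peaks there and the NKT list 4. The strongest Tg thy peak (19061964 to 19063230) had a score of 772.4, rank 100 of 5198, and lay 47.2 kb upstream. The NKT peak inside it (19062304 to 19062778) had a score of 165.1, rank 693 of 4246. This site covers the start of the noncoding gene Gm51814 (19062779 to 19069359), whose sequence is given above, and the NKT peak ends at the base before that start. Farther upstream, at 79.0 kb, a weaker pair of peaks had scores of 113.9 in the Tg thy and 117.7 in the NKT list.

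The outermost upstream Tnfaip3 peak was in the Tg thy list alone. It lay 89.5 kb upstream (19104534 to 19105286) with a score of 661.9, rank 149, and the closest NKT peak was 9863 bases away. On the downstream side a Tg thy peak at 83.3 kb (score 162.9) overlapped an NKT peak (106.0). A Tg thy peak at 47.5 kb (229.8) and an NKT peak at 89.8 kb (82.22) had no partner. Among all protein-coding genes 4.06% had as many Tg thy peaks as Tnfaip3 or more, and 1.67% had a peak scoring as high. In the NKT list these shares were 5.50% and 9.30%.

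Nfkbia encodes IkB-alpha, the inhibitor that is destroyed and made again in each round of NF-kB activity, and lay on chromosome 12 (55489409 to 55492647, minus strand). All its 6 Tg thy and 5 NKT peaks were on the downstream side of the gene. The strongest site lay 24.3 kb downstream, where 1 Tg thy peak (55464680 to 55465447, score 372.5, rank 469) contained 2 NKT peaks with scores of 288.9 (rank 256) and 109.7. A second site 22.8 kb downstream had scores of 350.4 (Tg thy, 55466344 to 55466930) and 237.5 (NKT, 55466393 to 55466836). These sites stand beside each other in both lists, and Nfkbia is the nearest coding gene to them.

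Just past the end of Nfkbia the lists held neighbouring peaks that did not meet. The Tg thy peak (55488829 to 55489105, score 61.38) had its midpoint 442 bases past the gene and the NKT peak (55489163 to 55489399, score 54.86) 128 bases past it, with 57 bases between them. Their scores were among the low ones, with 83.1% and 78.9% of each list at or above them. A site 45.1 kb downstream, closer to the proteasome subunit gene Psma6, had scores of 283.8 in the Tg thy and 87.82 in the NKT list. Tg thy peaks at 42.4 kb (117.7) and 99.8 kb (94.46) had no NKT partner, the closest NKT peaks being 2357 and 845 bases away. The peak at 99.8 kb was the closest to the 100 kb limit from inside. The next peaks outside that limit at Nfkbia lay 101.0 kb away with scores of 542.2 in the Tg thy and 53.38 in the NKT list.

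Nfkbie encodes IkB-epsilon, an inhibitor that binds Rel and Rela dimers, and lay on chromosome 17 (45555700 to 45563169, plus strand) among 10 other coding genes. It had the most peaks of the 10 genes, 7 in the Tg thy list and 6 in the NKT list, and none had Nfkbie as its nearest coding gene. The highest-scoring site of all 10 windows lay 66.8 kb upstream, at 45488045 to 45489730 in the Tg thy list (score 3102, rank 2) and at 45488060 to 45489509 in the NKT list (score 1455, rank 10). The nearest coding gene to it was Spats1. Scores of exactly 3100 occurred 7 times in the Tg thy list with only 2 above, so the order at the top of that list may not be exact. Next to it, a Tg thy peak at 68.4 kb had a score of 469.4 and contained an NKT peak of 111.0.

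The remaining Nfkbie peaks were weaker and mostly at other genes. Beside the chaperone gene Hsp90ab1 and inside the noncoding gene Gm35399, 10.8 kb from Nfkbie, a Tg thy peak of 110.5 met NKT peaks of 63.66 and 94.16. A Tg thy peak 57.0 kb downstream (159.3) overlapped an NKT peak of 67.03, and 1 inside Capn11, 72.7 kb downstream (64.17), overlapped an NKT peak of 62.79. The peaks at 55.7 kb downstream (209.9) and at 6.95 kb upstream inside Tmem151b (71.95) were in the Tg thy list alone. The closest NKT peak was only 818 bases from the former and 24870 bases from the latter. All 6 NKT peaks at Nfkbie had a Tg thy partner.

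Nfkbid encodes IkB-NS, an atypical IkB protein that acts in the nucleus, and lay on chromosome 7 (30421731 to 30428749, plus strand). A single strong site was common to both lists, 27.1 kb upstream. It had a score of 649.3 in the Tg thy list (30394126 to 30395206, rank 158) and of 379.7 in the NKT list (30394269 to 30394846, rank 150). The site lies in the noncoding gene Gm42376, and the closest coding gene is Tyrobp, which encodes a signalling adaptor of natural killer and myeloid cells. A weak NKT peak at 48.1 kb upstream (57.60) had no partner. Of all protein-coding genes 2.57% had a Tg thy peak as high in their window and 2.35% an NKT peak as high.

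Nfkbiz encodes IkB-zeta, a nuclear IkB protein that can also activate genes, and lay on chromosome 16 (55811375 to 55838954). It was the gene with a peak inside its body, in the Tg thy list alone (55820058 to 55820468, score 94.52, rank 3070). The closest NKT peak was 127501 bases from it. The score is below the median of its list.

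**Figure D2:**
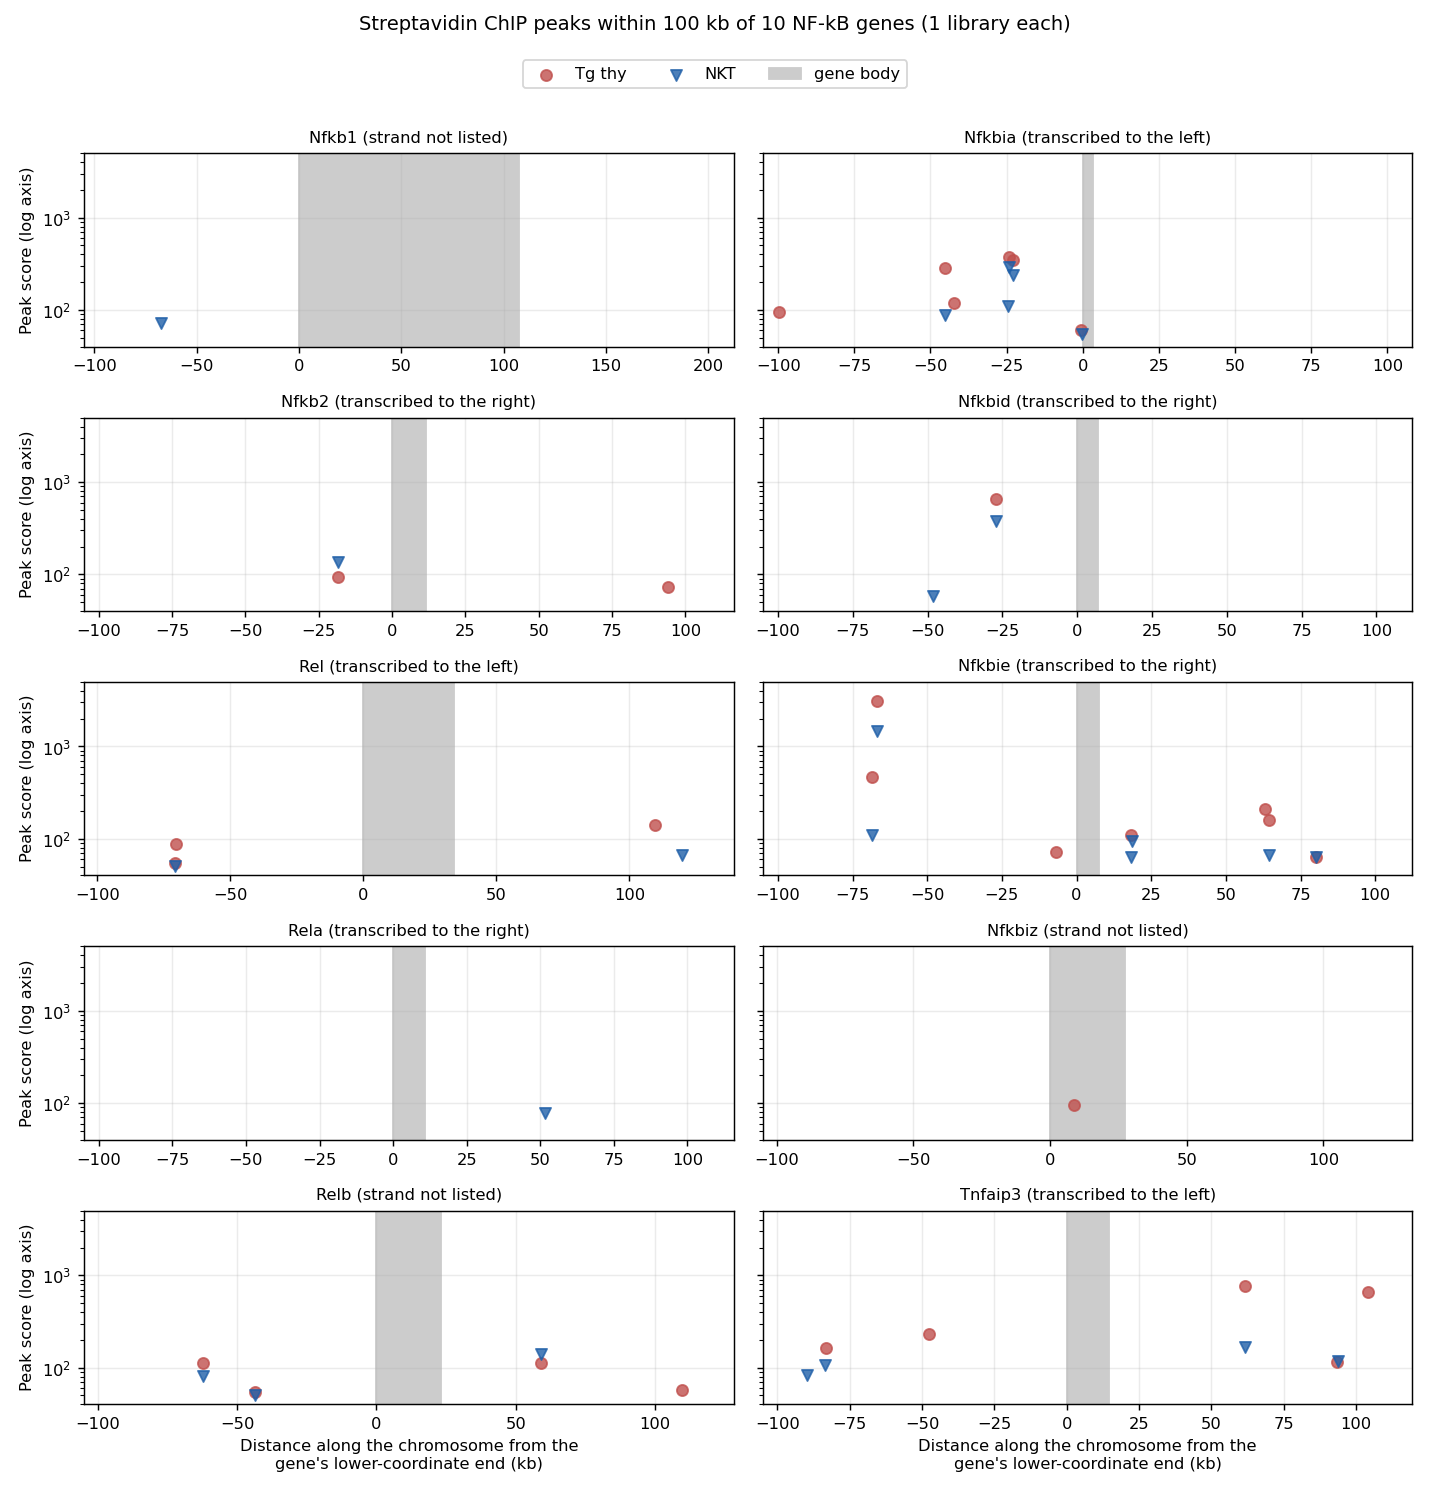
Peak midpoints around each of the 10 genes (x axis, kb from the gene's end with the lower coordinate) against peak score (y axis, log scale), circles for the Tg thy and triangles for the NKT library, grey for the gene body, subunits on the left and inhibitors on the right. Subunit windows hold no score above 141.1, and the highest points are those upstream of Nfkbie (3102 and 1455).

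The subunit windows held on average 1.80 Tg thy and 1.60 NKT peaks, between the 0.959 and 0.781 of all protein-coding genes and the 4.0 and 3.4 of the inhibitors. No peak had the subunit gene as its nearest coding gene, and none reached the top 10% of its list. Of all protein-coding genes only 13.6% (Tg thy) and 11.7% (NKT) were the nearest one to a peak. With 5 genes and 9 and 8 peaks, both zeros are near the general shares. Relb, the partner of the non-canonical dimer, had the most (chromosome 7, 19606217 to 19629438), with 4 in the Tg thy list and 3 in the NKT list, numbers that 7.52% and 9.91% of all protein-coding genes reached. The highest NKT score was just upstream of the start of Clptm1, 35.8 kb from Relb, with scores of 111.0 (Tg thy, 19665081 to 19665410) and 140.8 (NKT, 19665065 to 19665508). Inside Ppp1r37 the pairs were 111.0 and 82.03 at 62.4 kb, and 53.84 and 50.20 at 43.8 kb, the Tg thy value first. The latter pair lies in the Ppp1r37 start window. Its NKT peak, whose sequence is given above, stops upstream of that start, and its Tg thy peak reaches over it. A Tg thy peak near Tomm40 (56.60) had no partner.

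Rel encodes c-Rel, the subunit most used by stimulated lymphocytes, and lay on chromosome 11 (23736847 to 23770969, minus strand) with 3 Tg thy and 2 NKT peaks. In Pus10, 70.6 kb downstream, scores were 54.56 and 50.05 in an overlapping pair, and a Tg thy peak of 88.00 beside them had no partner. Upstream of Rel each list had 1 peak toward Papolg, at 75.5 kb in the Tg thy list (141.1) and at 85.5 kb in the NKT list (66.19), with 9670 bases between them. Nfkb2, which encodes a precursor of the non-canonical pathway, lay on chromosome 19 (46300994 to 46312400, plus strand). It had a common site 18.5 kb upstream inside Gbf1, with scores of 93.63 (Tg thy, 46282254 to 46282650) and 137.3 (NKT, 46282234 to 46282654). A Tg thy peak inside Actr1a, 82.7 kb downstream (73.67), had no partner.

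Rela, the main activating subunit, and Nfkb1, the precursor of its usual partner, had 1 NKT peak each and no Tg thy peak. The Rela peak (chromosome 19, 5688951 to 5689095, score 77.38) lay 40.9 kb downstream of the gene (5637442 to 5648134, plus strand), in the start windows of Map3k11, a MAP kinase kinase kinase gene, and Pcnx3. The Nfkb1 peak (chromosome 3, 135517045 to 135517349, score 72.88) lay inside Manba, 67.5 kb from Nfkb1 (135584655 to 135691969). The nearest Tg thy peak to Rela was 139.0 kb away (51.20) and that to Nfkb1 181.0 kb away (102.4).

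Across the windows 17 of 29 Tg thy peaks overlapped an NKT peak by at least 1 bp, 58.6% (exact 95% interval 38.9 to 76.5%), against 45.7% of the whole list. On the NKT side 19 of 25 did so, 76.0% (54.9 to 90.6%), against 60.7% of the whole list. These intervals cover counting error only and treat peaks as independent, although many lie at the same gene and some share 1 partner. Both list-wide values lie within them, from which nothing is concluded. Without Nfkbie the shares were 54.5% and 68.4%. In the 19 overlapping pairs the midpoints were a median of 64 bases apart and at most 252, and the NKT peak lay wholly inside the Tg thy one in 13. The Tg thy peak was the wider one in 17 pairs and had the higher number as score in 16. The whole lists differed in the same direction, with median widths of 387 bp (Tg thy) and 224 bp (NKT) and median scores of 110.8 and 73.79. No share over all overlapping pairs of the lists is given here, so these counts cannot be called particular to the NF-kB windows. The 3 pairs with the higher NKT number were those at Nfkb2, at Relb (Clptm1) and 79.0 kb upstream of Tnfaip3.

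In these windows, peaks without a partner scored lower in general. Their median was 94.49 against 159.3 for shared peaks in the Tg thy list, and 69.54 against 109.7 in the NKT list. No such split of the whole lists is given here, so this cannot be called particular to the NF-kB windows. All 6 unshared NKT peaks had scores of 82.22 or less. The Tg thy list had an exception in the Tnfaip3 peak of 661.9 at 89.5 kb, the highest unshared value of the 10 windows. Tg thy peaks of the 10 windows had a median width of 433 bp (387 bp in the whole list) and NKT peaks of 276 bp (224 bp).

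**Figure D3:**
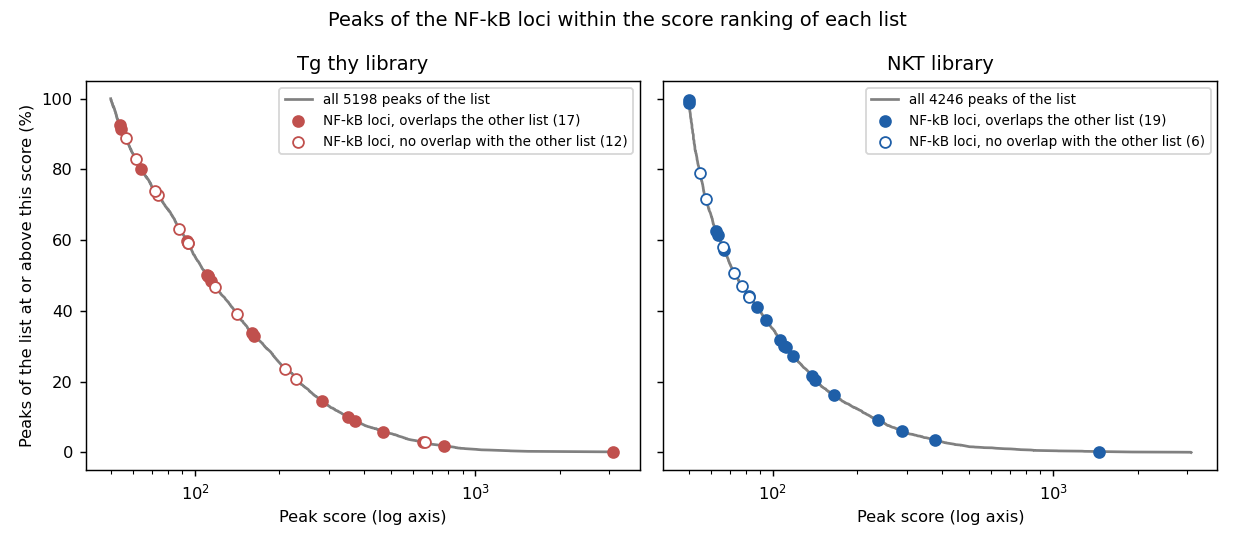
Score (x axis, log scale) against the percentage of the list at or above that score (y axis) for all peaks (grey line) and for the peaks of the NF-kB windows, filled where they overlap a peak of the other list and open where they do not, 1 panel per library. The windows' peaks run from the low scores up to 3102 in the Tg thy panel, and up to 1455 in the NKT panel, where the list reaches 3104. The open points reach 661.9 in the Tg thy panel but no more than 82.22 in the NKT panel.

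Peaks overlapped few start windows of any gene, 2.33% of 32817 in the Tg thy list and 1.70% in the NKT list. The RefSeq table held 12 such windows for 7 of the NF-kB genes (Nfkb1, Relb and Nfkbiz were not among them), and 0 of 12 were overlapped in either list, which is near those shares. The closest approach was at Nfkbia, with 3493 bases to a Tg thy and 3199 to an NKT peak, both at the far end of this short gene. Counted by peaks, 5 of 29 Tg thy peaks (17.2%) and 6 of 25 NKT peaks (24.0%) overlapped a start window of some other gene, against 12.0% and 10.8% of each whole list. The kappa B consensus, the sequence that NF-kB dimers bind, was searched on both strands in the 12 windows. It was found in 7 windows of 5 genes, Nfkb2, Rel, Nfkbia, Nfkbid and Tnfaip3, against 5.80% of all start windows and 6.27% of those of protein-coding genes. The matches read GGAAATTCCC at Nfkbia, GGAAATCCCC at Tnfaip3, GGGACTTCCC at Nfkbid, and GGGAATTCCC, GGGGCTTTCC and GGGACTTTCC at Nfkb2, where the last is 1 site in 2 overlapping windows. At Rel 2 overlapping matches were found, GGGAAATCCC and GGAAATCCCC. The parts of peaks whose sequence could be read, which lie at other genes' starts, held no match to this consensus. These parts are few and most are shorter than a start window, of which only 5.80% held a match, so nothing is concluded from that.

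Other parts of the NF-kB pathway had peaks in smaller shares, which were nearer to the background. Of 21 genes of the activation machinery, which carries receptor signals to the IkB kinase, 13 had a Tg thy (61.9%) and 10 an NKT peak (47.6%) in their window, 8 in both, against 41.7%, 37.2% and 31.0% of all protein-coding genes. By nearest coding gene 6 of the 21 had a Tg thy and 3 an NKT peak, against 13.6% and 11.7% of all protein-coding genes. The window of Traf2, an adaptor of TNF receptors, had highest scores of 259.2 in the NKT and 762.3 in the Tg thy list. That of Tab1, which encodes a partner of the kinase TAK1, had 215.3 and 440.9. That of Ripk1, which encodes a kinase of TNF receptor signalling, had 191.1 and 334.1. Neither Tab1 nor Ripk1 was the nearest coding gene to any peak. Birc2 and Birc3, neighbouring genes of ubiquitin ligases in TNF signalling, had a Tg thy highest score of 137.7 each and no NKT peak. No peak in either list lay around 6 of the 21 genes, as was so for 11418 of 21887 protein-coding genes. They were Map3k7, Rbck1, Tab3 and the genes of the IkB kinase subunits Chuk, Ikbkb and Ikbkg, all named after their values were seen.

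Of 15 further inhibitors and modulators 10 had a peak in each list (66.7%), 8 in both. By nearest coding gene 4 of the 15 had a peak in each list. The window of Commd1, which promotes degradation of Rela, had the highest NKT score (747.3, and 1311 in the Tg thy list). Commd1 was not the nearest coding gene to any NKT peak. Bcl3, an atypical IkB gene, had 179.5 and 271.8, Nfkbib, which encodes IkB-beta, 127.1 and 746.0, and Tax1bp1, a partner of A20, 111.8 and 78.27. Pdlim2 (113.8) and Tnip2 (66.00) had peaks in the Tg thy list alone. Bcl3, Nfkbib, Tax1bp1, Pdlim2 and Tnip2 were not the nearest coding gene to a peak in either list. Of 20 target genes 12 had a Tg thy and 11 an NKT peak, 10 in both, beside the same background. By nearest coding gene 8 and 7 of them had one. Tnf, Lta and Ltb are neighbours, and the same highest peaks served all of them (169.7 in the NKT and 116.0 in the Tg thy list). Irf1, an interferon response factor, had 166.1 and 72.76. Cxcl10 (69.42) and Junb (54.29) had peaks in the Tg thy list alone.

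Other signal-dependent factor genes had a peak in at least 80.0% of cases in each list. Of 11 JAK and STAT genes 11 had a Tg thy and 9 an NKT peak. Of 10 NFAT and AP-1 genes 8 had one in each list. Among all protein-coding genes 41.7% had a Tg thy and 37.2% an NKT peak. The median of the highest score per gene with a peak was 288.9 and 142.7 for JAK and STAT genes and 197.9 and 119.0 for NFAT and AP-1 genes, against 154.9 and 96.93 over all protein-coding genes. Among the NF-kB pathway lists it was 185.9 and 142.1 for the activation machinery. For the further inhibitors it was 113.8 and 95.62, below both background medians. For the target genes it was 126.9 and 110.7, below the background in the Tg thy list only. No test was made between these lists, and several of their genes share peaks. The lists were not matched on the number of other coding genes in the window, or on expression, which was not measured here.

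**Figure D4:**
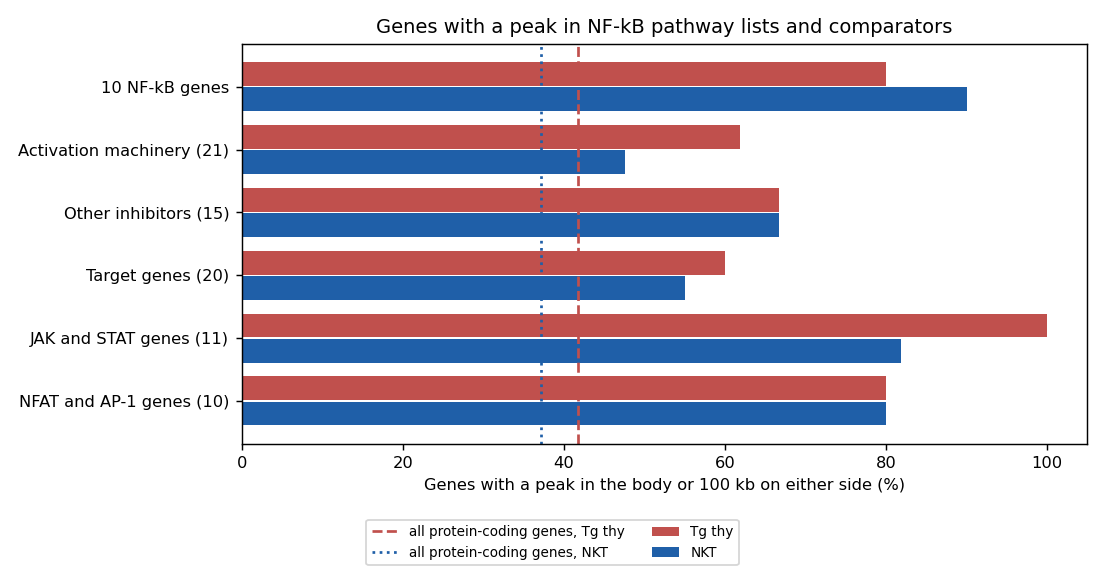
Percentage of genes with a peak in the body or within 100 kb (x axis) for the 10 NF-kB genes, 3 pathway lists and 2 comparator lists (y axis, number of genes in brackets), red for the Tg thy and blue for the NKT library, with lines at the share of all protein-coding genes. All lists stand above the lines of 41.7% and 37.2%, and the 10 NF-kB genes, at 80.0% and 90.0%, stand beside the JAK and STAT and the NFAT and AP-1 genes.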

How the data were processed

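Streptavidin ChIP-seq peak lists of 2 libraries were used, 1 per group, of 4 samples in all. Each file had 5 columns without a header, and the fifth holds a score per peak as deposited by the authors. Its meaning is not stated. Lists of this layout from MACS, whose name the peak names carry, often hold a scaled p-value there. The build was mm10, and Bowtie, Picard and HOMER were used, per the submitters' processing notes. Tool versions, use of the inputs and pooling were not given in the sources used here. A score of that kind would grow with read depth, which is unknown.

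Starts were raised by 1 to 1-based coordinates. Genes came from RefSeq for GRCm38.p6 (21887 protein-coding genes, 10 of 10 members matched). Strand came from the start-window table, for 7 of 10. Peaks with a midpoint in the gene body or 100 kb on either side were taken, and peaks overlapping by at least 1 bp counted as shared. Members and lists were chosen with earlier results of these data known. All members were named, and from each pathway list up to 4 genes with a peak in both lists (by NKT score) and 2 with a peak in 1 list (by score). Of the genes this rule names, 1 is not reported here. The assignment was tested on simulated peaks. No test between libraries was possible. Alternatives were narrower windows, nearest gene, score limits and other definitions of sharing. Python 3.11.15, pandas 2.3.3 and scipy 1.17.1 were used.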

Additional observations from a re-analysis of the deposited data

How the results depend on the processing

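No paired analysis was possible because each group had 1 library. Counts are given in the order genes with a Tg thy peak, an NKT peak and a peak in both, then Tg thy peaks, NKT peaks, shared Tg thy peaks and shared NKT peaks. As reported they were 8, 9, 7, 29, 25, 17 and 19. Taking any base of a peak in place of its midpoint changed none of the 7 counts. With 50 kb on either side they were 7, 7, 6, 14, 14, 9 and 11, with 10 kb 3, 1, 1, 3, 1, 0 and 0, and in the gene body 1, 0, 0, 1, 0, 0 and 0. With peaks nearest to the gene itself they were 3, 2, 2, 8, 6, 4 and 5. The top 50% of each list by score gave 6, 7, 5, 17, 16, 11 and 12, and the top 1000 gave 4, 6, 4, 8, 7, 5 and 5. Narrower windows, the nearest-gene rule and score limits can only lower these counts. A 50% overlap of both peaks left 12 and 12 shared, and midpoints within 1 kb gave 19 and 20. The unknown depth, the score threshold and the single library per group limit every statement on absence from a list.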
